A study of Mus musculus with 6 samples.

Results

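The miR-130 and miR-301 family was followed here through its 4 mouse members on the arrays, mmu-miR-130a, mmu-miR-130b, mmu-miR-301a and mmu-miR-301b (written below without mmu), chosen by the name of the reporter. They are 4 of the 1078 reporters, the probes for 1 miRNA each. Each array measured total RNA of 1 culture of vascular smooth muscle cells (VSMCs), which form the muscle layer of arteries, taken from the abdominal aorta of 8-week C57BL/6 mice and harvested after passaging. Cultures treated with TNF-α, an inflammatory cytokine (n = 3), were compared with untreated control cultures (n = 3), in 1 colour (Cy5), to ask which microRNAs (miRNAs) differ between them. The sources used here do not give the dose of TNF-α or how long it was applied.

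A miRNA is a short RNA that guides the silencing complex to mRNAs, mostly through pairing of its seed, bases 2 to 8, with a site in the mRNA. miRNAs of this family share a seed and so share many predicted targets. In the pulmonary circulation the family is known to repress the nuclear receptor PPAR-γ, an inhibitor of smooth muscle proliferation, and to rise in pulmonary hypertension. In rat VSMCs miR-130a is known to promote proliferation by repressing the homeobox factor Gax.

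The mature sequences of 3 of the 4 members, and that of miR-721, are shown because their common seed defines the family. They are RefSeq sequences on GRCm38.p6, with the seed in capitals.
miR-130a: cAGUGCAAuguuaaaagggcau
miR-130b: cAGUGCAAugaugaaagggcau
miR-301a: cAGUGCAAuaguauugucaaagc
miR-721: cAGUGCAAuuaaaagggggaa
The first 9 bases were identical in miR-130a, miR-130b and miR-301a. Compared base by base without gaps, miR-130a and miR-130b agreed at 20 of 22 bases, whereas miR-130a and miR-301a agreed at 12 of 22. The seed stood at bases 2 to 8 of 7 of the 1679 mature mouse miRNAs in the table (0.417%). Of these 7, only miR-130a, miR-130b, miR-301a and miR-721 had a reporter of that name. The 1679 do not hold the mature sequence of miR-301b, so the 7 could not include it, although miR-301b has a reporter. For miR-301b the hairpin is shown instead, with its single run of the seed letters in capitals.
miR-301b hairpin: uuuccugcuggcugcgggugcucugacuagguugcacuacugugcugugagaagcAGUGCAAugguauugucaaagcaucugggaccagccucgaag

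The members come from 3 chromosomes of GRCm38.p6. Mature miR-130a lies at chr2:84741116-84741137 on the minus strand, with no annotated gene other than its own spanning the hairpin. Mature miR-130b lies at chr16:17124071-17124092 on the minus strand. The miR-301b hairpin, chr16:17124400-17124496 on the same strand, lies 257 bases from the miR-130b hairpin, and both lie within the gene 2610318N02Rik. Mature miR-301a lies at chr11:87113054-87113076 on the plus strand, within Ska2, a gene of the kinetochore complex. miR-721 lies at chr5:136375777-136375797 on the minus strand, within Cux1.

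The median spot density, a brightness in arbitrary units, had a median over the 1078 reporters of 85.9 to 97.2 on the TNF-α arrays and 74.7 to 82.7 on the control arrays. Background had not been subtracted, and its peak, the commonest density on an array, was 82.3 to 91.6 with TNF-α and 68.3 to 76.5 in controls. A background limit, the peak plus 3 SD of the values below it, was exceeded by 228 to 246 reporters on TNF-α arrays and by 284 to 326 on control arrays. All TNF-α arrays thus had a higher background than all control arrays. TNF-α and this shift of the arrays cannot be told apart in the design. The smooth muscle miRNAs miR-143 and miR-145 exceeded the limit on all 6 arrays. Of the other cell type markers on the arrays, 5 of 6 of blood cells and 5 of 5 of epithelium exceeded it on no array. The endothelial miR-126-3p exceeded it on 2 TNF-α and 3 control arrays, and the striated muscle miR-206 on 3 and 3. Of the liver and gut markers, miR-192 exceeded it on 1 TNF-α and 3 control arrays, miR-194 on 0 and 3, and miR-215 on 0 and 2. Of 4 liver and gut markers 3 were called lower, against 9.81% of all 642 tested reporters, with densities above the peak that summed to 26.5 to 51.7 on TNF-α arrays and 134 to 179 on control arrays, and their part in the results was not tested. The same sum over 2 endothelial markers was 28.8 to 49.4 on TNF-α arrays and 39.1 to 66.4 on control arrays. Over the 6 blood markers it was -92.0 to -31.9 on TNF-α arrays and 1.89 to 17.6 on control arrays. With the peak subtracted, 23.8% of all 1078 reporters had every TNF-α value below every control value, and 10.7% the reverse. In such bulk RNA, fewer cells of a type, less miRNA per cell and the shift of the arrays cannot be told apart.

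miR-130a was the only member whose signal stood clear of background, and its density was much the same in both groups. On the 3 TNF-α arrays miR-130a had densities of 1191, 1270.1 and 1066, against 1176, 1259.7 and 991 on the control arrays. The groups overlapped, with means of 1176 ± 103 with TNF-α and 1142 ± 137 in controls (SD, n = 3 each). With the background peak of each array subtracted the mean was 1087 ± 98.0 with TNF-α and 1069.7 ± 133 in controls. The exact two-sided permutation test of miR-130a gave p = 0.6 for the log2 density and p = 1 for the density above the peak, where the smallest possible p is 0.1. The SD within a reporter was 5.86% to 8.71% of the density of miR-130a, below the spread between cultures.

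After quantile normalization, which replaces each density by a value set by its rank, miR-130a was called higher with TNF-α. It stood at rank 70 from the brightest on each of the 3 TNF-α arrays and at ranks 82, 76 and 80 on the control arrays. Its normalized log2 value was 10.27 on each TNF-α array and 9.94, 10.07 and 9.98 on the control arrays, so the groups did not overlap on this scale. The rise was 0.28 ± 0.07 on the log2 scale (SE, n = 3 per group), or 1.21-fold, with a 95% interval of 0.12 to 0.43 and an adjusted p of 0.0237 by limma. An SD of 0 among the TNF-α arrays there reflects equal ranks, not equal densities.

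The call of miR-130a was lost in 11 of 19 alternatives, 4 of which used another scaling between arrays. Without normalization the log2 change of miR-130a was 0.042 (95% interval -0.20 to 0.28, adjusted p = 0.792 by limma), while the median of all tested reporters was 0.14. Relative to that median it was -0.10. With scaling to the median of the reporters that reached the minimum on all arrays it was -0.013 (-0.22 to 0.19). In the authors' processed table taken as deposited it was 0.026 (-0.22 to 0.27), where the median of all tested reporters was -0.12, so that miR-130a lay 0.15 above it. Cyclic loess gave 0.18 (adjusted p = 0.0903). With quantile normalization kept, the call was also lost with a smaller offset (adjusted p = 0.0708 by limma) and with any 1 array left out except control replicate 2 (0.26 to 0.29, adjusted p = 0.0518 to 0.0744 by limma). The plot of miR-130a under each setting shows the estimates with quantile normalization at 0.26 to 0.32, cyclic loess below them and the other scalings near 0.

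**Figure D1:**
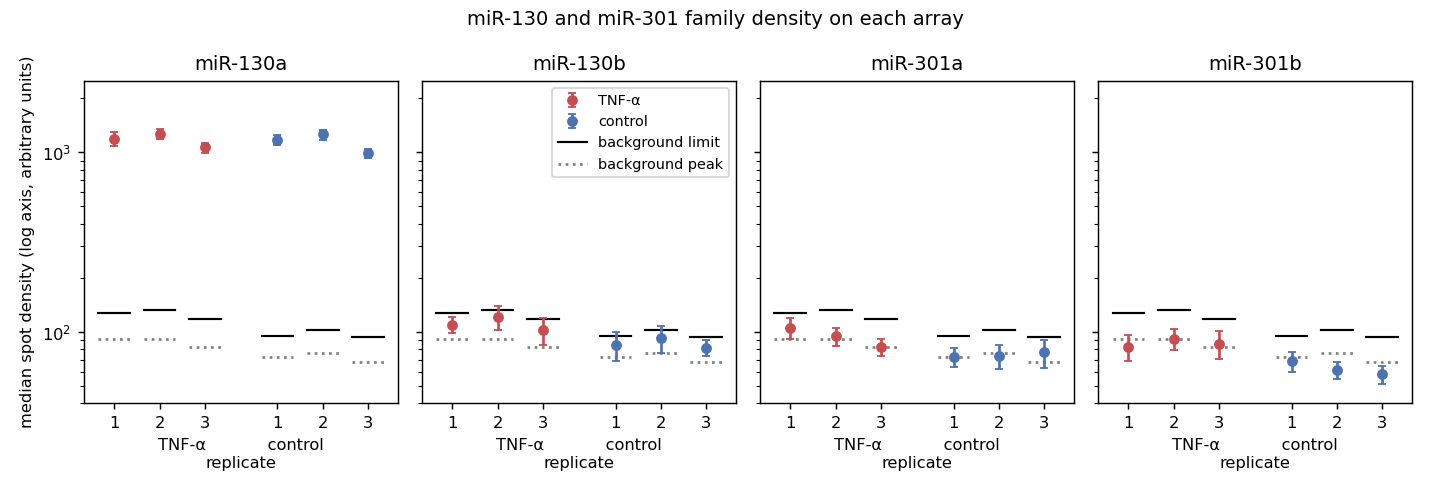
Median spot density of each family member (vertical axis, log scale, arbitrary units) on the 3 TNF-α and 3 control arrays, with the SD within the reporter as error bars, the background limit as solid and the background peak as dotted lines. miR-130a lay between 991 and 1270.1 on all 6 arrays, and the other 3 members lay below the limit on every array.

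**Figure D2:**
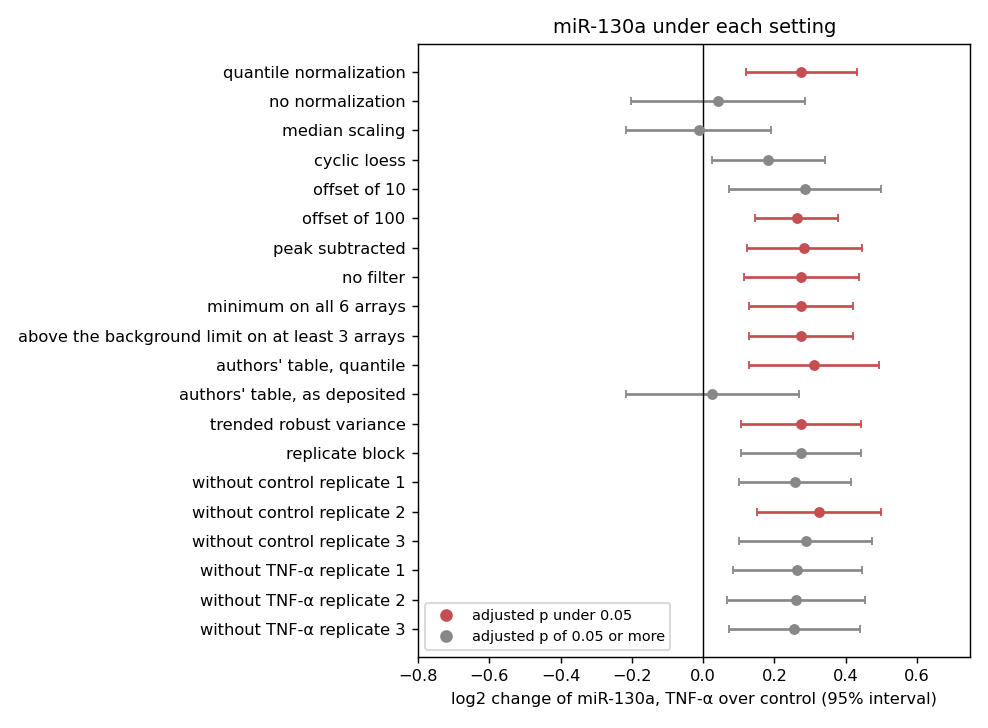
Log2 change of miR-130a, TNF-α over control (horizontal axis), with its 95% interval, under quantile normalization (top) and 19 alternative settings (down the page), coloured by whether limma's adjusted p was under 0.05. The change was 0.28 at the top, 0.042 without normalization and -0.013 with median scaling.

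Of the 4 members 3 were tested, and miR-130a alone passed. Across all 642 tested reporters 22.7% were called, 12.9% higher and 9.81% lower. Among the 202 that exceeded the limit on all 6 arrays, as miR-130a did, 18.3% were called higher and 15.3% lower. A reporter was tested when its background-corrected density reached 32 on at least 3 arrays. miR-301a reached this on 3 TNF-α arrays and no control array, miR-130b on 3 and 2, and miR-301b on 2 and 0, so that miR-301b was not tested. The passing of miR-301a therefore rested on the group with the higher values. Since 1 of the 4 members exceeded the background limit on all 6 arrays, no ratio between 2 members could be compared between groups.

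miR-130b, miR-301a and miR-301b exceeded the background limit on no array of either group, so no fold is given for them. Their fitted differences, in normalized log2 values that lie within the background of both groups, are printed with the test and are not measures of a fold. miR-130b had densities of 109.5, 121 and 101.9 on the TNF-α arrays, where the limits were 128, 132 and 118. On the control arrays it had 84.4, 92.3 and 81.7, where the limits were 93.8 to 102.9. All TNF-α values of miR-130b lay above all control values, also above the peak, with 22.4 ± 6.23 in TNF-α cultures and 13.6 ± 2.14 in controls (SD, n = 3 each). The fitted difference in normalized values of miR-130b was 0.15 ± 0.07 (SE) and did not pass (adjusted p = 0.153 by limma).

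miR-301a had densities of 105.3, 94.3 and 82.2 with TNF-α, against 72.4, 73.0 and 76.8 in controls. Its groups did not overlap in density. Above the peak they did, at 5.47 ± 7.31 with TNF-α and 1.52 ± 6.26 in controls (SD, n = 3 each), and the fitted difference of 0.11 ± 0.09 (SE) did not pass (adjusted p = 0.441 by limma). miR-301b, the chromosomal neighbour of miR-130b, had densities of 82.4, 91.5 and 85.6 with TNF-α, against 68.6, 61.2 and 58.0 in controls. Its density relative to the peak was -1.94 ± 6.41 with TNF-α and -9.95 ± 5.53 in controls (SD, n = 3 each), again overlapping. Exact two-sided permutation tests of log2 density gave p = 0.1 for each of these 3 members, the smallest possible, and 0.133 after adjustment over the 4 members. On the density above the peak the exact permutation p was 0.1 for miR-130b, 0.5 for miR-301a and 0.2 for miR-301b, with adjusted values of 0.4, 0.667 and 0.4.

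The higher densities of these 3 dim members with TNF-α are set here beside those of other dim reporters. Among the 707 reporters that exceeded the limit on no array, the mean density was higher with TNF-α by a median of 13.4, with 90% of the reporters between -2.79 and 28.9. The difference was 24.7 for miR-130b, 19.9 for miR-301a and 23.9 for miR-301b, at percentiles 88.7, 74.4 and 86.6 of those reporters. All 3 differences were above the median and within the range of 90% of them. Over all 1078 reporters 38.2% had every TNF-α density above every control density, and 4.36% the reverse. With the peak subtracted these shares were 10.7% and 23.8%. The part of the background in the differences of the dim members was not tested beyond these values.

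**Figure D3:**
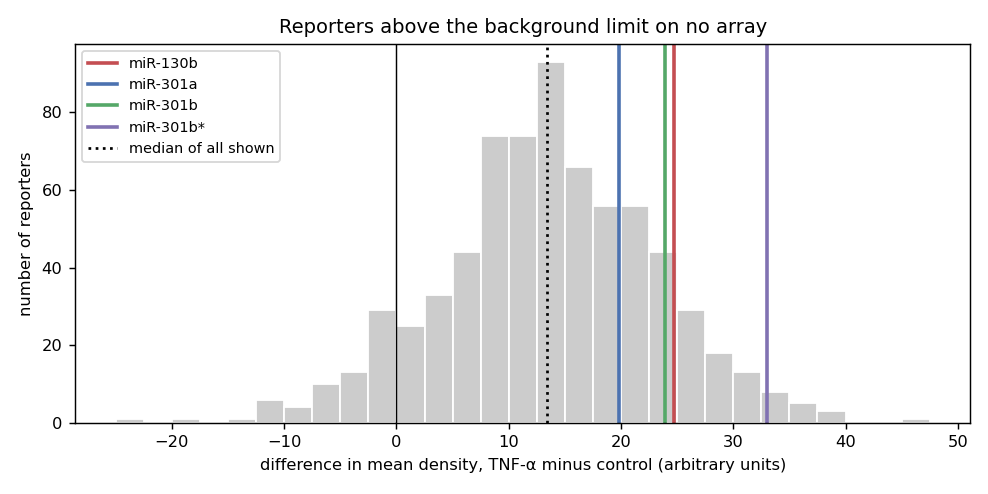
Number of reporters (vertical axis) by the difference in mean density, TNF-α minus control (horizontal axis, arbitrary units), for the 707 reporters above the background limit on no array, with vertical lines for miR-130b, miR-301a, miR-301b and miR-301b*. The median of all shown was 13.4, and the 4 marked reporters lay at 19.9 to 33.0. Not marked were miR-130b* (15.5), miR-721 (15.8) and miR-301a* (21.5).

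The other arms of the 4 hairpins, written with an asterisk in the older names of the arrays, were all on the arrays. The other arms of miR-301a and miR-301b are shown because they have the same seed as each other, in capitals, which differs from that of the members.
miR-301a*: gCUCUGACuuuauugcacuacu
miR-301b*: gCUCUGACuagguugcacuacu
miR-301b* exceeded the limit on no array and has no fold. It had densities of 96.9, 97.0 and 84.9 with TNF-α, against 54.0, 65.2 and 60.6 in controls. The minimum for testing was reached on the 3 TNF-α arrays only, so it entered the test through the group with the higher values, and its call as higher (adjusted p = 0.0221 by limma) is no support for a difference. The difference of 33.0 lay at percentile 97.9 of the reporters never above the limit. With the peak subtracted the groups did not overlap, at 4.45 on average with TNF-α and -12.6 in controls. On that scale 10.7% of all 1078 reporters had every TNF-α value above every control value. The call of miR-301b* was lost without control replicate 2 (adjusted p = 0.0516 by limma) and with a smaller offset (0.0536). Without any 1 TNF-α array it was not tested.

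miR-301a* (fitted difference 0.17 ± 0.07 SE, adjusted p = 0.128 by limma) and miR-130a* (0.07 ± 0.08, adjusted p = 0.615) did not pass. miR-301a* exceeded the limit on no array and reached the minimum for testing on the 3 TNF-α arrays only. miR-130a* exceeded the limit on no TNF-α array and on 2 control arrays, with densities of 115.8, 120.7 and 117.9 with TNF-α, against 100.9, 104.8 and 92.1 in controls. miR-130b* was not tested. Of the miRNAs listed beside the members for a shared seed or hairpin, 5 were on the arrays. Of these, 1 of 4 tested was called, miR-301b*, against 22.7% of all tested reporters. The median change of the 4 was 0.12, against 0.01 over all tested reporters. However, 0 of the 5 exceeded the limit on all 6 arrays, and miR-301a* and miR-301b* reached the minimum on TNF-α arrays only. That median is therefore no support for a difference. In that list miR-721, whose mature sequence has the family seed, had densities of 104.1, 96.2 and 100.3 with TNF-α, against 93.6, 81.7 and 77.9 in controls. It exceeded the limit on no array and did not pass (0.03 ± 0.10 SE, adjusted p = 0.828 by limma).

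The family seed overlaps, shifted by 1 base, with the seeds of the miR-148 and miR-152 family and of miR-19, which share a run of 6 of its 7 letters. They are shown because many sites for 1 family resemble those of the other, and the seed of each is in capitals.
miR-152: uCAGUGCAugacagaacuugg
miR-148a: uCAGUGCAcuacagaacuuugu
miR-148b: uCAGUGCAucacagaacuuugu
miR-19a: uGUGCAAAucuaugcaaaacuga
miR-19b: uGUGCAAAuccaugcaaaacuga
Of these 5, 4 were tested and 0 were called in either direction, with 1 at an unadjusted p under 0.05 by limma. Across all 642 tested reporters 22.7% were called and 228 had an unadjusted p under 0.05 by limma. The median change of the 4 was -0.16, against 0.01 over all tested reporters.

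miR-152, known for targeting the DNA methyltransferase Dnmt1, exceeded the limit on all 6 arrays and had a lower density with TNF-α. Its densities were 695, 908 and 784 on the TNF-α arrays, against 1143, 1147 and 959 on the control arrays. The groups did not overlap, with means of 795 ± 107 with TNF-α and 1083 ± 108 in controls (SD, n = 3 each). Over all 1078 reporters 4.36% had every TNF-α density below every control density, and 23.8% with the peak subtracted. After quantile normalization the change of miR-152 was -0.20 ± 0.11 (SE) and did not pass (adjusted p = 0.261 by limma). It was -0.05 without TNF-α replicate 1. miR-152 passed as lower without normalization (-0.45, adjusted p = 0.0141 by limma), with median scaling (-0.51), with cyclic loess (-0.31, adjusted p = 0.0432) and in the authors' processed table as deposited (-0.55, adjusted p = 0.00286). It did not pass in the other 15 of 19 alternatives, and no alternative turned its sign.

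miR-148a was below the limit on all arrays and did not pass (adjusted p = 0.0575 by limma). It had densities of 89.1, 88.7 and 88.5 with TNF-α, against 89.5, 99.96 and 81.1 in controls. In 2 of 14 alternatives it passed as lower. Above the peak its groups did not overlap, at 0.31 ± 5.17 with TNF-α and 17.6 ± 5.39 in controls (SD, n = 3 each). On that scale 23.8% of all 1078 reporters had every TNF-α value below every control value. miR-148b exceeded the limit on the 3 control arrays only, and miR-19b on 2 TNF-α and 3 control arrays. Neither passed, with changes of -0.13 ± 0.09 (adjusted p = 0.337 by limma) and -0.09 ± 0.08 (adjusted p = 0.445). miR-19a was not tested.

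**Figure D4:**
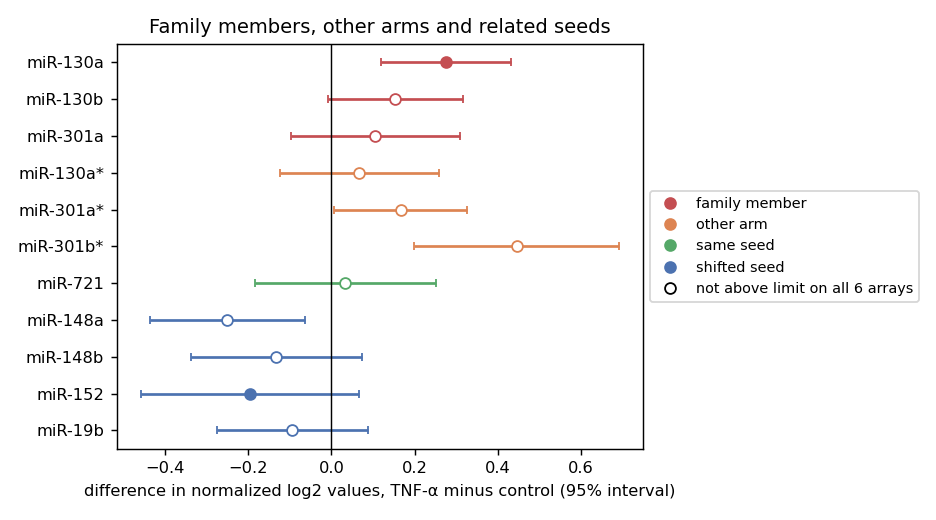
Fitted difference in normalized log2 values, TNF-α minus control (horizontal axis), with 95% intervals, for the tested family members, other arms, the same-seed miR-721 and the shifted-seed miRNAs (down the page). Filled points exceeded the background limit on all 6 arrays, which only miR-130a (0.28) and miR-152 (-0.20) did, and open points are not measures of a fold.

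**Figure D5:**
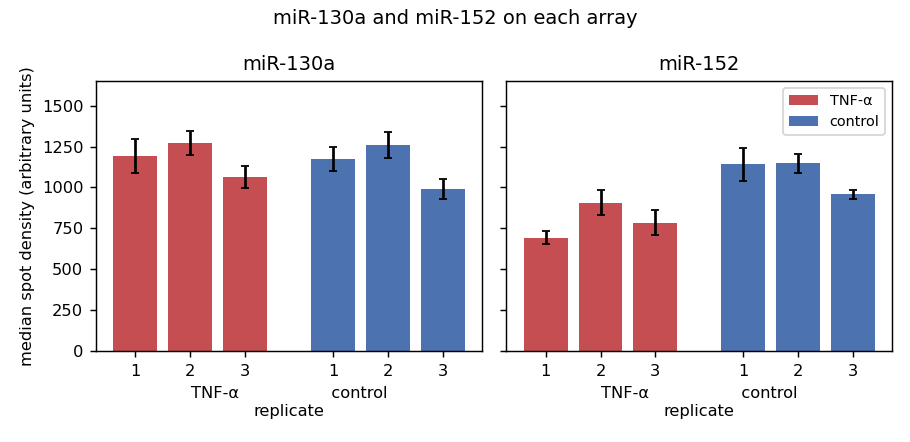
Median spot density (vertical axis, arbitrary units, from 0) of miR-130a and miR-152 on the 3 TNF-α and 3 control arrays, with the SD within the reporter as error bars. The miR-130a groups overlapped, while all TNF-α values of miR-152, at most 908, lay below all control values, at least 959. Of all 1078 reporters 4.36% had every TNF-α density below every control density.

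In pulmonary vessels the family is known to act through PPAR-γ on miR-204 and on the cluster of miR-424 and miR-503, whose mouse counterpart of miR-424 is miR-322. Of 3 of these on the arrays 1 was called, miR-322, as lower (adjusted p = 0.0355 by limma), against 22.7% of all tested reporters called and 9.81% called lower, with a median change over the 3 of -0.04. miR-322 had densities of 106.9, 103.4 and 95.6 with TNF-α, against 112.8, 106.6 and 97.4 in controls, so the groups overlapped before scaling. Above the peak they did not, at 13.5 ± 1.85 with TNF-α and 33.0 ± 5.95 in controls (SD, n = 3 each). On that scale 23.8% of all 1078 reporters had every TNF-α value below every control value. miR-322 exceeded the limit on control arrays only and gave no bound above 1. Its call was lost in 9 of 18 alternatives, 6 of which left out 1 array each (-0.27 to -0.21). miR-503 (fitted difference 0.19 ± 0.09 SE, adjusted p = 0.179 by limma) and miR-204 (-0.04 ± 0.08, adjusted p = 0.751) exceeded the limit on no array and did not pass. The minimum for testing was reached by miR-503 on the 3 TNF-α arrays only.

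Among 10 other miRNAs linked to VSMC proliferation, all above the limit on all 6 arrays, 0 were called and the median change was 0.00. Among the 202 reporters above the limit on all 6 arrays, 18.3% were called higher and 15.3% lower. Of the 10, 1 had an unadjusted p under 0.05 by limma, against 228 of all 642 tested reporters. The 4 of the 10 with the smallest p were miR-92a (-0.29 ± 0.12 SE, adjusted p = 0.106 by limma), miR-21 (-0.18), miR-146a (0.13) and miR-26a (0.18). Of 19 alternatives miR-92a passed in 2, miR-21 in 1, and miR-146a and miR-26a in 0. miR-21 and miR-146a had the other sign in 3 of 19 alternatives each, at 0.076 for miR-21 and -0.0094 for miR-146a without normalization. Among miRNAs of the contractile state 0 of 5 tested were called, against 22.7% of all tested reporters. The 5 had a median of -0.04, and 0 of them had an unadjusted p under 0.05 by limma. In that list miR-145, which promotes the contractile phenotype, had a fitted difference of 0.17 ± 0.09 (SE, adjusted p = 0.217 by limma). Its mean density was 6173 ± 646 with TNF-α and 5151 ± 620 in controls (SD, n = 3 each), without overlap. Over all 1078 reporters 38.2% had every TNF-α density above every control density. miR-145 passed in 1 of 19 alternatives. The fitted differences of miR-10a (0.05) and miR-143 (-0.05) each turned sign in 1 of 19 alternatives. That of miR-133b (-0.06), above the limit on 1 control array only, turned in 2 of 14.

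Among the 201 other reporters above the limit on all 6 arrays, the normalized values most like those of miR-130a over the 6 arrays were those of miR-24-2* (Pearson r = 0.99), miR-25 (0.98) and miR-324-5p (0.97). The least alike was miR-206, a striated muscle miRNA (-0.98). These correlations describe 6 arrays that share their scaling and differ by group. miR-24-2*, the other arm of a miR-24 hairpin, had densities of 245, 242 and 228 with TNF-α, against 164, 203 and 166 in controls. The fitted difference of miR-24-2* was 0.41 ± 0.08 (SE). miR-324-5p had densities of 351, 356 and 339 with TNF-α, against 267, 284 and 229 in controls, and a fitted difference of 0.49 ± 0.07. Neither overlapped between groups before scaling, whereas miR-130a did. Over all 1078 reporters 38.2% had every TNF-α density above every control density. miR-25 had densities of 716, 735 and 712 with TNF-α, against 588, 719.7 and 544 in controls, which overlapped, and a fitted difference of 0.39 ± 0.08. miR-206 had densities of 199, 198 and 168 with TNF-α, against 277, 256 and 237 in controls, and a fitted difference of -0.49 ± 0.07. These 4 were chosen by their likeness to normalized values that separate the groups, so their differences are a description and no test is given. The 3 striated muscle markers on the arrays, miR-206 among them, had densities above the peak that summed to 111 to 151 on TNF-α arrays and 210 to 234 on control arrays. Most of this sum was miR-206, with means of 100.16 with TNF-α and 184.05 in controls (n = 3 each). The groups of the other markers, miR-133a and miR-133b, overlapped above the peak. Before the peak was subtracted, both had a higher mean density with TNF-α. The sum therefore mainly repeats miR-206, which was chosen for its values, and does not describe the markers as a set.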

How the data were processed

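Total RNA was tailed, tagged and stained with Cy5, per the labels' protocols. The authors deposited per array a median density and SD for each reporter, which are linear intensities according to the columns of the files, and a table of processed intensities. How the background and scale of that table were set, and the scanner, software and probe sequences, are not given in the sources.

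Densities were corrected with normexp (offset 50), taken to log2 and quantile normalized in limma 3.58.1 (R 4.3.3). Reporters reaching a corrected density of 32 on at least 3 arrays (642) were tested with limma's moderated two-sided test, with the group as the only term, Benjamini-Hochberg adjustment over all of them and a threshold of 0.05. The offset understates changes. The family, the lists and the background limit were chosen with earlier results of these data known. Named were the members, their hairpin and seed relatives, up to 4 per related list by smallest p, and the reporters most and least like miR-130a. Of 14 names looked up, 13 matched a RefSeq mature sequence, and miR-301b did not. The cultures were grown separately per the labels. The number of arrays limits precision.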

Additional observations from a re-analysis of the deposited data

How the results depend on the processing

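The rise of miR-130a passed with quantile normalization and was lost or turned under 11 of 19 alternatives. It was -0.013 with median scaling, 0.042 without normalization, 0.18 with cyclic loess, 0.29 with an offset of 10 and 0.026 in the authors' processed table as deposited. It lost its call with the replicate block (0.28, adjusted p = 0.0508 by limma) and with any 1 array left out except control replicate 2, at 0.26 to 0.32 over all 6. It kept its call in the other alternatives, at 0.26 to 0.31. miR-130b, never above the background limit, passed without normalization (0.33) and with median scaling (0.28), and was 0.12 to 0.20 with 1 array left out. miR-301a passed without normalization (0.31), was 0.06 to 0.17 without 1 control array and was not tested without a TNF-α array. Without the filter miR-301b was at 0.25 ± 0.10 (SE, adjusted p = 0.115 by limma). These values of dim members are differences within the background, not folds. Dim members had no value under stricter filters, and the ratios between members could not be computed with 1 member clear of background. The number of reporters changed was 146, and 70 to 91 with 1 array left out, where 500 to 626 were tested. It was 100 to 204 in the other alternatives, 163 higher and 41 lower without normalization, 126 and 60 with median scaling, and 39 and 81 in the processed table as deposited. The replicate numbers come from the ends of the titles, since the descriptions give 2 TNF-α samples 1 number. Same-numbered arrays had deviations correlated at 0.04, 0.02 and 0.15, and differently numbered arrays at -0.13 to 0.10. The numbers were not taken as pairs, and the block gave 103 changed reporters. Where a cause of a lost call is not given here, it was not tested.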

Other observations

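A comparison chosen after the data were seen set miR-130a against miR-152 within each array, which does not depend on a scale factor between arrays. With the background peak subtracted, the log2 ratio of miR-130a to miR-152 was 0.87, 0.53 and 0.49 on the TNF-α arrays and 0.04, 0.14 and 0.05 on the control arrays. The mean ratio was 0.63 ± 0.21 with TNF-α and 0.08 ± 0.06 in controls (SD, n = 3 each), a difference of 0.55. All TNF-α arrays lay above all control arrays, and no test was made because the pair was chosen for its values. The separation of the groups is therefore a description of these arrays.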
